A study of Mus musculus with 12 samples.

Results

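The enzymes that make and break down heme were followed in the livers of 6 female SJL/J mice at 11 weeks of age. All mice received a control diet with 50 ppm iron from their arrival at 3 weeks, and 3 of them were changed at 6 weeks to an iron-loaded diet with 2% carbonyl iron. The mice of each diet lived in 1 cage, which means that an effect of the cage cannot be told apart from one of the diet, and all were fasted and perfused before the liver was taken. From each RNA, 1 Trad-KAPA library (KAPA Stranded mRNA-Seq, which samples the whole transcript) and 1 3’-LEXO library (QuantSeq 3’ FWD, which samples the end of the transcript) were made, so that 12 libraries came from 6 mice. The genes were chosen by name, as Alas1, Alad, Uros, Urod, Cpox and Fech for synthesis and Hmox1, Blvra and Blvrb for breakdown. All 9 were found by their Ensembl identifiers among the 27022 genes in the table of read counts, and all 9 had enough counts to be tested in each comparison.

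Heme is a porphyrin ring that holds iron, and the liver needs it above all for the cytochrome P450 enzymes. Its synthesis starts in the mitochondrion, where the product of Alas1 joins glycine to succinyl-CoA in the step that limits the rate in liver, passes through the cytosol and ends in the mitochondrion with the insertion of iron. Breakdown opens the ring, which frees the iron and leaves biliverdin, and biliverdin reductases turn this into bilirubin.

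Library totals ranged from 10724672 to 16553616 counts, and levels are expressed in CPM (counts per 1 M counts of the library). Replicates differed by more than counting noise, and chi-square divided by its degrees of freedom was 18.5 to 35.9 between control mice of a kit. Iron-loaded mouse 1 stood apart in both kits, at 49.5 to 59.8 from the other iron-loaded mice, which differed from each other by only 5.98 with Trad-KAPA and 5.97 with 3’-LEXO. Results without this mouse are therefore also given for some of the genes. The hepatocyte markers Alb, Apoa1, Ttr, Cyp2e1, Cps1, Ass1, Tat and Pck1 together reached 119123 to 157656 CPM in the Trad-KAPA libraries and 47626 to 71746 CPM in 3’-LEXO. In bulk liver, fewer cells of a type and less RNA per cell cannot be told apart.

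In Trad-KAPA, 5 of the 9 genes passed the test between diets (edgeR quasi-likelihood test, Benjamini-Hochberg adjusted p below 0.05), beside 17.1% of the 13151 genes tested. Alas1, Hmox1 and Blvrb were higher on the iron-loaded diet, where 8.77% of all genes were, and Alad and Uros were lower, where 8.37% were. In 3’-LEXO, 1 of the 9 genes, Alas1, passed the same test, beside 6.10% of the 13301 genes tested. It was higher, where 3.17% of all genes were, and none of the 9 was lower, where 2.92% were. The median log2 difference of the 9 genes was -0.25 with Trad-KAPA and -0.06 with 3’-LEXO, and that of all genes tested was 0.02 and 0.01. In Trad-KAPA the calls thus took in the first enzyme of synthesis and 2 of 3 genes of breakdown among the higher genes, and the enzymes of the second step and of ring closure among the lower.

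**Figure D1:**
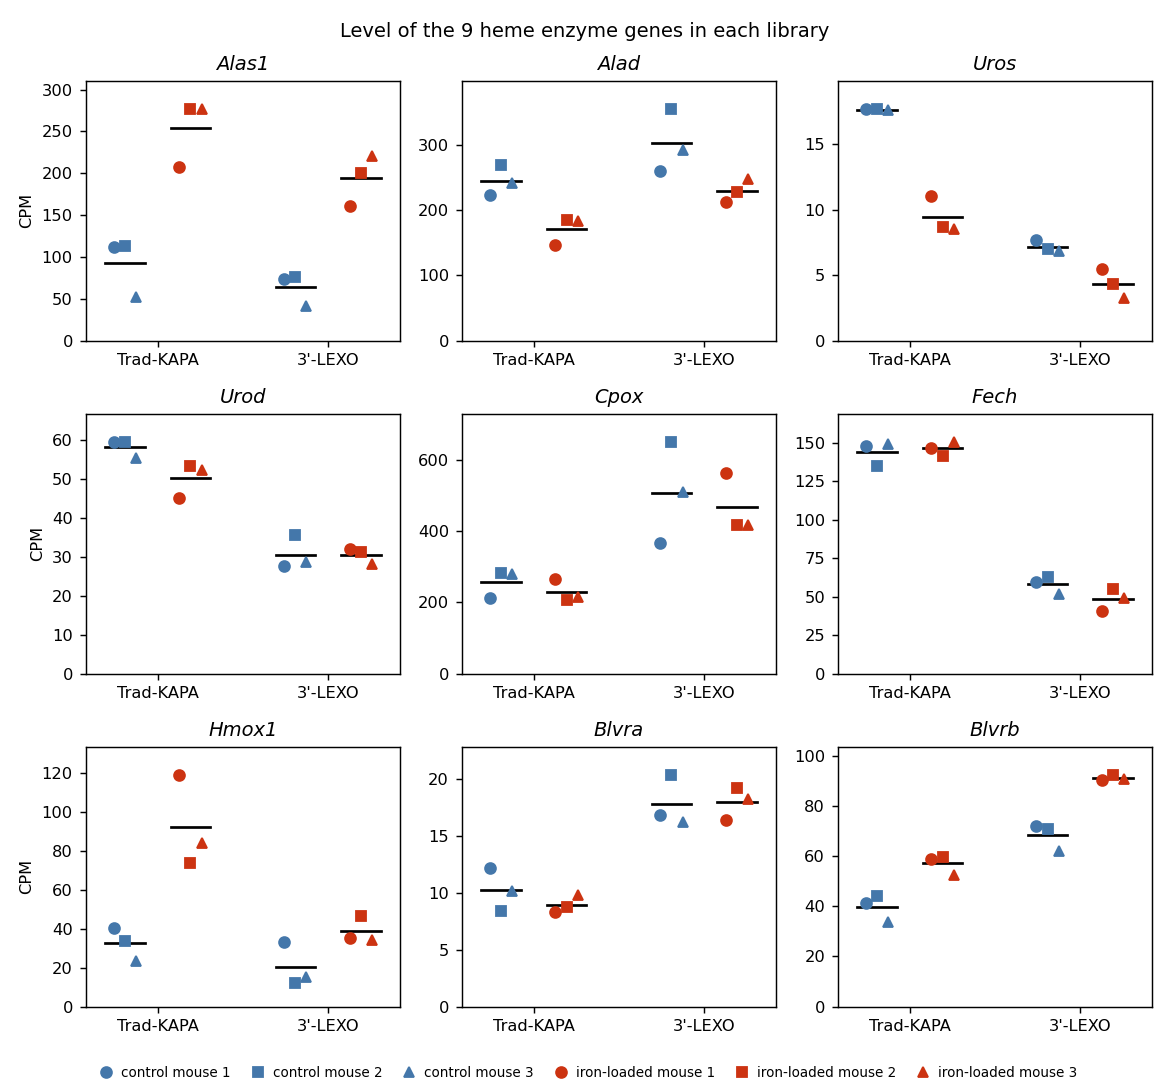
CPM of the 9 genes in each of the 12 libraries. Each point is a library, its shape the mouse and its colour the diet, each short line is the mean of 3 mice, and each vertical axis starts at 0. Alas1, Hmox1 and Blvrb lie higher on the iron-loaded diet in both kits and Alad and Uros lower, without overlap.

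Alas1 (ENSMUSG00000032786), on the minus strand of chromosome 9 of GRCm38 from 106233455 to 106248654, encodes the first and rate-limiting enzyme. In Trad-KAPA it had 112, 113 and 52.0 CPM in control mice 1, 2 and 3 and 207, 277 and 277 CPM in iron-loaded mice 1, 2 and 3. In 3’-LEXO the levels were 73.0, 76.1 and 41.8 CPM in control mice and 161, 200 and 220 CPM in iron-loaded mice. Every iron-loaded library was above every control library of its kit, and control mouse 3 was the lowest in both kits. Alas1 rose by 1.41 ± 0.27 on the log2 scale (SE, n = 3 per diet) in Trad-KAPA, a 2.65-fold change, with an adjusted p of 0.0139 in edgeR. In 3’-LEXO it rose by 1.56 ± 0.23, or 2.96-fold, with an adjusted p of 0.00556 in edgeR. It stayed past the threshold in all 12 alternative settings in each kit (another tool, scaling, filter or depth, a replicate block, or each mouse left out), between 1.14 and 1.56 on the log2 scale with Trad-KAPA and between 1.35 and 1.69 with 3’-LEXO. An antisense gene, 4930500F10Rik, shares 465 exon bases with Alas1 on the other strand, and the strand setting of the counting is not given in the sources used here, so that the 2 could share reads.

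The promoter of Alas1 is shown because it holds a motif that few promoters have. The window taken for a promoter was the RefSeq sequence of GRCm38.p6 from 250 bases before to 50 bases after a start site, and 7 of the 9 genes (not Fech or Hmox1) had such a window, 11 windows in all. The palindrome of nuclear respiratory factor 1 (NRF-1), the run of capitals in the line that follows, was found in Alas1 alone among these 7 genes. It was in 2 of the 11 windows, beside 0.971% of all 32851 windows, but both of these windows hold the same site. The palindrome was 1 of 12 motifs searched. The palindrome begins 195 bases before one annotated start site and 30 bases after the other. The stretch lies at chr9:106247906-106247935 on the minus strand, is written 5′ to 3′, and has the motif in capitals.
Alas1: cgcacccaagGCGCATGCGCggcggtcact
The gene of this factor, Nrf1, had a diet difference of 0.02 on the log2 scale with Trad-KAPA and -0.08 with 3’-LEXO, with no call in either kit.

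Alad (ENSMUSG00000028393, chromosome 4, 62509169 to 62519918, minus strand) encodes delta-aminolevulinate dehydratase, which makes the pyrrole unit of the ring. Its Trad-KAPA levels were 224, 270 and 242 CPM in control mice and 147, 185 and 183 CPM in iron-loaded mice. In 3’-LEXO they were 261, 356 and 293 CPM in control mice and 213, 229 and 249 CPM in iron-loaded mice. The diets did not overlap in either kit, and control mouse 1 was the lowest control in both. Alad fell by 33.1% in Trad-KAPA (log2 difference -0.58 ± 0.15), with an adjusted p of 0.0311 in edgeR. The difference in 3’-LEXO was -0.45 ± 0.16, with an adjusted p of 0.124. The Trad-KAPA call was lost without control mouse 1, 2 or 3 or iron-loaded mouse 2 or 3 (adjusted p 0.0522 to 0.101 in edgeR), in fits that called 6.27% to 9.24% of all genes.

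Uros (ENSMUSG00000030979, chromosome 7, 133686243 to 133710072, minus strand) encodes the synthase that closes the ring to uroporphyrinogen. It had 17.6, 17.7 and 17.6 CPM in the control mice in Trad-KAPA and 11.1, 8.68 and 8.48 CPM in the iron-loaded mice. The 3’-LEXO levels were 7.65, 7.01 and 6.81 CPM in control mice and 5.44, 4.29 and 3.27 CPM in iron-loaded mice. The diets did not overlap, and iron-loaded mouse 1 was the highest of its diet in both kits. Uros fell by 49.3% in Trad-KAPA (log2 difference -0.98 ± 0.13), with an adjusted p of 0.00426 in edgeR, and stayed past the threshold in all 12 alternatives. In 3’-LEXO, where it had only 36 to 107 counts per library, the difference was -0.78 ± 0.22, with an adjusted p of 0.0640. Without iron-loaded mouse 1 it was -0.96, with an adjusted p of 0.0308 in edgeR.

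Urod (ENSMUSG00000028684, chromosome 4, 116989965 to 116994413, minus strand), which encodes uroporphyrinogen decarboxylase, did not pass the test in either kit. Its Trad-KAPA levels were 59.6, 59.6 and 55.6 CPM in control mice and 45.3, 53.4 and 52.3 CPM in iron-loaded mice. These ranges did not overlap, while the 3’-LEXO ranges of 27.6 to 35.6 CPM in control mice and 28.2 to 32.1 CPM in iron-loaded mice did. The log2 difference was -0.28 ± 0.11 in Trad-KAPA, with an adjusted p of 0.121 in edgeR, and -0.06 ± 0.14 in 3’-LEXO. Its 95% interval in Trad-KAPA reached from -0.53 to -0.02 on the log2 scale.

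Cpox (ENSMUSG00000022742, chromosome 16, 58670292 to 58717636, plus strand), which encodes coproporphyrinogen oxidase of the mitochondrial intermembrane space, varied more among mice than between diets. It had 213, 282 and 279 CPM in control mice and 266, 205 and 216 CPM in iron-loaded mice in Trad-KAPA. In 3’-LEXO the levels were 365, 650 and 509 CPM in control mice and 564, 417 and 418 CPM in iron-loaded mice. Control mouse 2 and iron-loaded mouse 1 were the highest of their diets in both kits, and the diets overlapped. The log2 difference was -0.25 ± 0.15 with Trad-KAPA and -0.18 ± 0.22 with 3’-LEXO, with adjusted p-values of 0.278 and 0.637 in edgeR. Cpox shares 204 exon bases with Gpr15 on the other strand.

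Fech (ENSMUSG00000024588) encodes ferrochelatase, which puts iron into the ring and ends the pathway. Its Trad-KAPA levels were 148, 135 and 149 CPM in control mice and 147, 141 and 150 CPM in iron-loaded mice. The log2 difference in Trad-KAPA was -0.05 ± 0.10, with a 95% interval from -0.29 to 0.19. In 3’-LEXO the level was 51.8 to 62.9 CPM in control mice and 41.0 to 54.9 CPM in iron-loaded mice, with a log2 difference of -0.32 ± 0.16 and an adjusted p of 0.248 in edgeR. The diets overlapped in both kits.

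The E-box CACGTG, which proteins of the basic helix-loop-helix family bind, was present in 4 of the 11 windows and in 7.15% of all windows. These 4 windows belonged to Alad, Uros and Urod. The stretches are shown as found, and a link to the diet differences was not tested. They are written 5′ to 3′ on the minus strand with the motif in capitals, at chr4:62520151-62520180 and chr4:62519920-62519949 for Alad, chr7:133709516-133709545 for Uros and chr4:116994445-116994474 for Urod.
Alad, first: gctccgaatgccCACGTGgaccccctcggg
Alad, second: ccgccccgccccCACGTGggcttgcgcttt
Uros: CACGTGtgctttctcacctcgtccacgatt
Urod: cactggatcggtCACGTGgttctcaatatg
Of the other motifs searched on both strands, the GC box GGGCGG was found in 6 of the 11 windows (5 genes) and 35.7% of all windows. CCAAT was in 4 of the 11 windows (3 genes) and 37.4% of all. The GATA site AGATAA was in 1 of the 11, that of Cpox, and 11.2% of all. The AP-1 and MARE core TGAGTCA (5.20% of all windows), the cAMP response element TGACGTCA (1.79%), TATAAA (13.6%), the direct repeat of AGGTCA with 1 base between (0.0396%), the forkhead site TGTTTAC (3.65%) and the HNF4 site CAAAGTCCA (0.475%) were in 0 of the 11 windows.

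Hmox1 (ENSMUSG00000005413, chromosome 8, 75093621 to 75100589, plus strand) encodes heme oxygenase 1, the inducible enzyme that opens the heme ring. In Trad-KAPA it had 40.5, 33.5 and 23.6 CPM in control mice and 119, 73.6 and 83.9 CPM in iron-loaded mice. The 3’-LEXO levels were 33.1, 12.2 and 15.2 CPM in control mice and 35.2, 46.8 and 34.4 CPM in iron-loaded mice. The diets did not overlap in either kit, but control mouse 1 came within reach of the iron-loaded mice in 3’-LEXO. Hmox1 rose by 1.43 ± 0.21 on the log2 scale in Trad-KAPA, or 2.69-fold, with an adjusted p of 0.00579 in edgeR, and stayed past the threshold in all 12 alternatives. The 3’-LEXO difference was 0.89 ± 0.33, or 1.85-fold, with an adjusted p of 0.130. It passed the threshold in 2 of 12 alternatives. Without control mouse 1 it was 1.42, with an adjusted p of 0.0226 in edgeR, but without control mouse 2 it was 0.61 (adjusted p 0.287) and without control mouse 3 it was 0.73 (adjusted p 0.318).

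Macrophages of the liver break down the heme of old red cells, and the levels of their markers are given beside Hmox1. The summed level of 10 Kupffer cell and macrophage markers was 409 to 657 CPM in control mice and 752 to 825 CPM in iron-loaded mice with Trad-KAPA, and 960 to 1268 and 1309 to 1619 CPM with 3’-LEXO. Of these, 3 were called higher in Trad-KAPA (Marco, Lyz2 and Vsig4) and 2 in 3’-LEXO (Marco and Lyz2). Of all genes tested, 8.77% were called higher with Trad-KAPA and 3.17% with 3’-LEXO. Adgre1, Clec4f and Timd4 overlapped between diets in both kits. Vsig4, Marco, Cd5l, Csf1r, Cd68, Lyz2 and Spic were higher without overlap in Trad-KAPA, as 24.7% of all genes were. In 3’-LEXO, Vsig4, Marco and Lyz2 were higher without overlap, as 18.5% of all genes were. The 5 markers of recruited macrophages summed to 14.2 to 14.9 CPM in control mice and 30.2 to 44.8 CPM in iron-loaded mice with Trad-KAPA, and to 13.7 to 18.5 and 33.4 to 56.4 CPM with 3’-LEXO. Among these 5, Itgax and Cd9 were called higher in Trad-KAPA, and Cd9 in 3’-LEXO, where 4 were tested. Gpnmb in both kits and Trem2 in Trad-KAPA were also called higher. They passed the filter on low counts only through the iron-loaded libraries, so their tests could only come out higher. Cd9 made up most of the Trad-KAPA sum, with means of 11.1 CPM in control mice and 22.3 CPM in iron-loaded mice. In the control libraries, Gpnmb had only 3 to 4 counts with Trad-KAPA and 2 to 5 with 3’-LEXO, and Trem2 had 0 to 1 in each kit. Iron-loaded mouse 1 had the highest sums of its diet for both lists in both kits and the highest Hmox1 level in Trad-KAPA, where Hmox1 without this mouse still rose by 1.24 (adjusted p 0.0021 in edgeR). In 3’-LEXO the highest Hmox1 level was that of iron-loaded mouse 2, at 46.8 CPM against 35.2 CPM in iron-loaded mouse 1. The part of these cells in the Hmox1 difference was not tested.

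Blvra (ENSMUSG00000001999, chromosome 2, 127070665 to 127097084, plus strand) encodes biliverdin reductase A, which makes the bilirubin of the adult. Its levels overlapped between diets, at 8.37 to 12.1 CPM in control mice and 8.28 to 9.77 CPM in iron-loaded mice with Trad-KAPA, and at 16.2 to 20.3 and 16.4 to 19.2 CPM with 3’-LEXO. The log2 difference was -0.26 ± 0.17 with Trad-KAPA and -0.04 ± 0.15 with 3’-LEXO, with adjusted p-values of 0.317 and 0.899 in edgeR. The window of Blvra held a match to TGACNNNGC, the core of the antioxidant response element that NRF2 and BACH1 bind with small MAF proteins, and is shown because it was the only one among the 7 genes. This core was in 1 of the 11 windows and 12.4% of all windows, and it can overlap the AP-1 core. It lies here on the opposite strand at chr2:127070598-127070627, with the plus strand printed 5′ to 3′ and the match in capitals.
Blvra: cacgggaattGCTCGGTCAaggctccgcct

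Blvrb (ENSMUSG00000040466, chromosome 7, 27447978 to 27466144, plus strand) encodes biliverdin reductase B, which also serves as a flavin reductase. Its Trad-KAPA levels were 41.4, 44.1 and 33.6 CPM in control mice and 58.9, 59.8 and 52.6 CPM in iron-loaded mice. In 3’-LEXO the control mice had 72.2, 70.7 and 61.8 CPM and the iron-loaded mice 90.1, 92.3 and 90.6 CPM. Control mouse 3 was the lowest in both kits and the diets did not overlap. Blvrb rose by 0.46 ± 0.11 on the log2 scale in Trad-KAPA, or 1.37-fold, with an adjusted p of 0.0307 in edgeR, and the 3’-LEXO difference was 0.36 ± 0.13 with an adjusted p of 0.123. The Trad-KAPA call was lost without control mouse 1, 2 or 3 or iron-loaded mouse 2 or 3, with adjusted p-values of 0.0576 to 0.0960 in edgeR. Over the 9 genes, 6 had diets that did not overlap in Trad-KAPA, beside 41.2% of all genes tested, 3 higher (24.7%) and 3 lower (16.6%). In 3’-LEXO 5 did not overlap, beside 31.3%, 3 higher (18.5%) and 2 lower (12.8%).

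**Figure D2:**
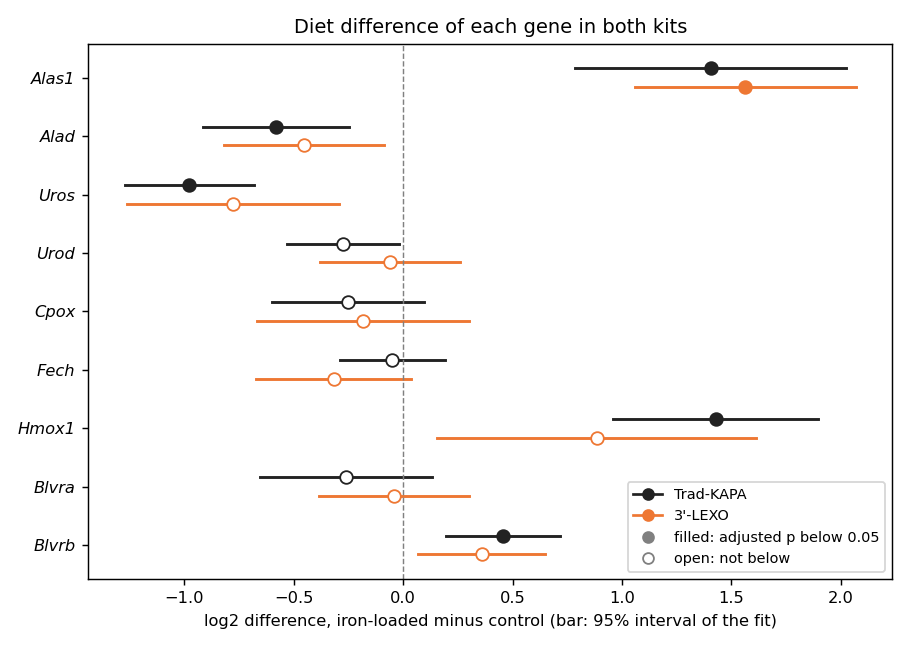
Log2 difference between diets (iron-loaded minus control) of the 9 genes in both kits, with the 95% interval of the fit. Filled points have an adjusted p below 0.05, as 5 genes do with Trad-KAPA and Alas1 does with 3’-LEXO.

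A call in one kit and not in the other does not show that the diet acted differently in them, so the difference of the diet effects was tested over all 12 libraries. None of the 9 genes was called by this test in edgeR, and 0 of 14384 genes were (0.00%). At an unadjusted p below 0.05 there were 402 genes, of which 0 were members, and DESeq2 gave 0 calls and 390 genes. With the mouse as a block 5 genes were called and without a filter on low counts 7, none of them a member. At an unadjusted p below 0.05 in edgeR, the block gave 1026 genes, of which 0 were members. Without the filter there were 688, of which 1 was a member. The largest difference among the members was that of Hmox1, -0.55 ± 0.44 on the log2 scale (3’-LEXO minus Trad-KAPA), with a 95% interval from -1.49 to 0.39. The next was that of Fech, -0.27 ± 0.18, with an interval from -0.66 to 0.12. Alas1 differed by 0.16 ± 0.38, with an interval from -0.65 to 0.97. These intervals come from the fit without a mouse term, although libraries of the same mouse deviated together, so they may be too wide. With the mouse as a block the difference was -0.47 for Hmox1, -0.28 for Fech and 0.13 for Alas1.

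The level of each gene differed between the kits, which had been given the same RNA. All 9 genes were called between kits in a fit with the mouse as a term (edgeR), where 82.6% of 14384 genes were. Cpox, Blvra, Blvrb and Alad were higher in 3’-LEXO, as 41.9% of all genes were, with mean ratios of 3’-LEXO to Trad-KAPA CPM of 1.99 ± 0.21, 1.91 ± 0.38, 1.66 ± 0.12 and 1.29 ± 0.10 (SD, n = 6 mice). Alas1, Urod, Hmox1, Uros and Fech were lower, as 40.8% of all genes were, with mean ratios of 0.738 ± 0.064, 0.568 ± 0.085, 0.528 ± 0.20, 0.432 ± 0.051 and 0.368 ± 0.065. The ratio was above 1 in 6 of 6 mice for the first group and in 0 of 6 mice for the second. The Hmox1 ratio ranged from 0.296 in iron-loaded mouse 1 to 0.816 in control mouse 1. Without the mouse term, Alas1 and Alad lost their calls, with adjusted p-values of 0.395 and 0.0838 in edgeR. Fech has the longest merged exons of the 9 genes (13838 bp) and the lowest ratio, but Cpox, with 6661 bp the second longest, has the highest.

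**Figure D3:**
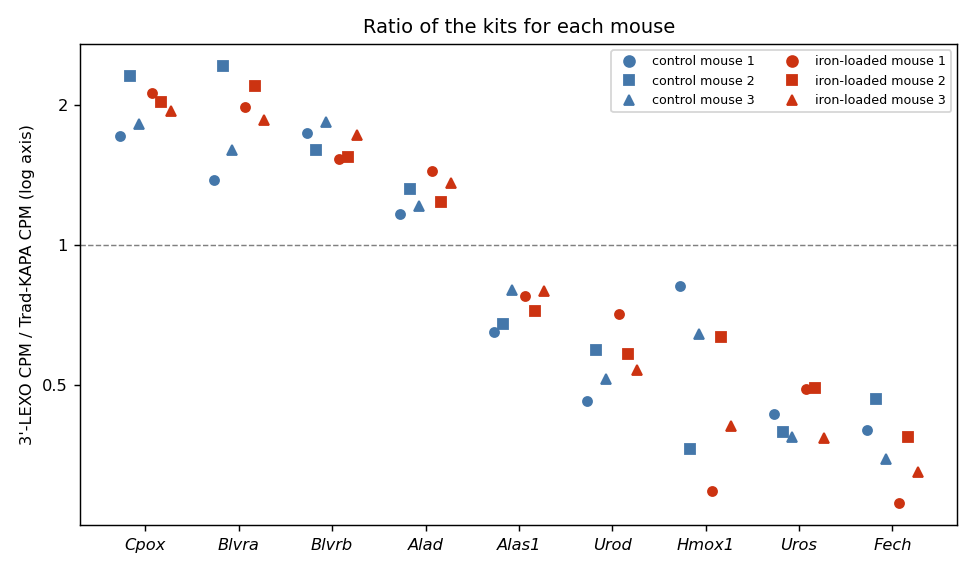
Ratio of 3’-LEXO to Trad-KAPA CPM of each gene in each of the 6 mice, on a log axis with a dashed line at 1. Each point is a mouse, and Cpox, Blvra, Blvrb and Alad lie above 1 in all mice and the other genes below.

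Levels of different genes were compared in Trad-KAPA per length, as CPM per kb of the merged exons. In control mice Alad was highest, at 131 ± 12.5 CPM per kb (SD, n = 3), followed by Cpox at 38.8 ± 5.83. Urod (22.5 ± 0.89), Hmox1 (18.6 ± 4.85), Alas1 (14.9 ± 5.64) and Blvrb (14.3 ± 1.97) followed, with ranges that overlapped between neighbours. Fech lay apart below them at 10.4 ± 0.57 CPM per kb, and Uros (4.93 ± 0.017) and Blvra (4.17 ± 0.77) were lowest and overlapped. In iron-loaded mice Alad was still highest at 91.8 ± 11.4 CPM per kb, but Hmox1 (52.6 ± 13.6) and Alas1 (41.1 ± 6.51) came next, in ranges that overlapped each other and, for Alas1, that of Cpox (34.4 ± 4.84). Blvrb had 20.5 ± 1.41 and Urod 19.4 ± 1.71 CPM per kb, with overlapping ranges, and Fech had 10.6 ± 0.32. Blvra (3.65 ± 0.31) and Uros (2.63 ± 0.40) were again the lowest, and no longer overlapped. The order depends on the length used: per kb of the longest transcript, Alas1 (74.6 ± 11.8) and Cpox (73.9 ± 10.4) came before Hmox1 (58.7 ± 15.1) in iron-loaded mice.

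Other enzymes of heme metabolism followed here were Ppox, the erythroid isoform Alas2 and the constitutive heme oxygenase Hmox2. Ppox encodes the oxidase that precedes ferrochelatase. It had 40.1, 41.2 and 34.8 CPM in control mice and 17.0, 21.5 and 21.5 CPM in iron-loaded mice in Trad-KAPA, and fell by 1.02 ± 0.13 on the log2 scale with an adjusted p of 0.00426 in edgeR. In 3’-LEXO its log2 difference was -0.54 ± 0.24, with an adjusted p of 0.195. Ppox shares 791 exon bases with B4galt3 on the other strand, and this overlap leaves its counts uncertain. Hmox2 rose by 0.68 ± 0.18 in Trad-KAPA (adjusted p 0.0389 in edgeR) and differed by 0.56 ± 0.16 in 3’-LEXO (adjusted p 0.0702), but it shares 892 exon bases with Cdip1 on the other strand. Without iron-loaded mouse 1 the Hmox2 difference in Trad-KAPA was 0.45, with an adjusted p of 0.0271. The Hmox2 call stood in 8 of 12 alternatives and was lost without control mouse 1, 2 or 3 or iron-loaded mouse 3, with adjusted p-values of 0.0501 to 0.127 in edgeR. Cdip1 itself rose by 1.10 on the log2 scale in Trad-KAPA, with an adjusted p of 0.0302 in edgeR.

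Alas2 had a log2 difference of -1.08 ± 0.45 with Trad-KAPA and -1.09 ± 0.47 with 3’-LEXO, with adjusted p-values of 0.134 and 0.188 in edgeR. Without 1 mouse it ranged from -1.45 (without control mouse 1, adjusted p 0.0437) to -0.62 (without control mouse 3, adjusted p 0.396) with Trad-KAPA, and from -1.48 to -0.26 with 3’-LEXO, again without control mouse 1 and control mouse 3. Its Trad-KAPA level of 3.26, 7.90 and 11.3 CPM in control mice 1, 2 and 3 followed the order of the summed erythroid markers, 18.8, 72.3 and 143 CPM, of which 7 of 8 were in the table. In iron-loaded mice these markers summed to 14.6 to 25.1 CPM with Trad-KAPA, and with 3’-LEXO to 160 to 1199 CPM in control mice and 115 to 204 CPM in iron-loaded mice, where Epb42 was at 0 in all libraries. Of the 4 erythroid markers tested, 1 was called in Trad-KAPA (Slc4a1, lower) and 0 in 3’-LEXO. Their part in the Alas2 difference was not tested. Alas2 shares 311 exon bases with Apex2 on the other strand.

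Counted over 45 other genes of heme metabolism, 14 were called in Trad-KAPA, 7 higher and 7 lower, beside 17.1% of all genes tested, and 3 with 3’-LEXO, all higher, beside 6.10%. The median log2 difference was 0.09 with Trad-KAPA and 0.11 with 3’-LEXO, against 0.02 and 0.01 over all genes. Of 25 genes of transport and handling, 7 were called with Trad-KAPA (17.1% of all genes) and 0 with 3’-LEXO (6.10%). Por, the reductase that passes electrons to heme oxygenase and cytochrome P450, rose by 1.17 ± 0.32 on the log2 scale in Trad-KAPA (adjusted p 0.0394 in edgeR) and differed by 1.01 ± 0.26 in 3’-LEXO (adjusted p 0.0536). Hpx, the plasma carrier of heme, rose by 0.63 ± 0.17 in Trad-KAPA, while Hebp1, which binds heme, and Pgrmc2, a heme chaperone, fell by 0.65 ± 0.17 and 0.63 ± 0.16. In 3’-LEXO, Hpx, Hebp1 and Pgrmc2 differed by 0.55, -0.55 and -0.51 (adjusted p 0.141, 0.243 and 0.140 in edgeR). The Trad-KAPA calls of Por, Hpx, Hebp1 and Pgrmc2 stood in 7, 8, 6 and 7 of 12 alternatives. Of 4 genes that handle bilirubin, 1 was called with Trad-KAPA (17.1% of all genes) and 0 with 3’-LEXO (6.10%). The called gene was Abcc3, an exporter to the blood, which rose by 0.73 ± 0.19 in Trad-KAPA. Its log2 difference in 3’-LEXO was 0.51, without a call, and its Trad-KAPA call stood in 8 of 12 alternatives.

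Of 13 regulators, 4 were called with Trad-KAPA, where 17.1% of all genes were, and 3 with 3’-LEXO, where 6.10% were. Bach1, the heme-binding repressor of Hmox1, had 37.5, 34.2 and 38.5 CPM in control mice and 79.8, 60.7 and 68.9 CPM in iron-loaded mice in Trad-KAPA. It rose by 0.85 ± 0.12 on the log2 scale there and by 0.94 ± 0.15 in 3’-LEXO, with adjusted p-values of 0.00479 and 0.00809 in edgeR, and the diets overlapped in neither kit. Nr1d2, which encodes the clock repressor REV-ERB beta, rose by 0.89 ± 0.12 with Trad-KAPA and 0.80 ± 0.15 with 3’-LEXO, with adjusted p-values of 0.00479 and 0.0173. Nr1i3 and Foxo1, which encode a xenobiotic receptor and a forkhead factor of fasting, fell by 0.39 ± 0.11 and 0.37 ± 0.10 in Trad-KAPA. Their adjusted p-values there were 0.0487 and 0.0430 in edgeR, and each call stood in 4 of 12 alternatives. In 3’-LEXO neither was called (adjusted p 0.273 and 0.515 in edgeR). Nfe2l2, which encodes the activator NRF2 and was singled out after its values were seen, rose by 0.60 ± 0.14 in 3’-LEXO (adjusted p 0.0352 in edgeR) and differed by 0.28 ± 0.17 in Trad-KAPA (adjusted p 0.276). The 14 Trad-KAPA calls fell to 3 without control mouse 2 (6.27% of all genes), control mouse 3 (7.66%) or iron-loaded mouse 3 (8.47%). They fell to 6 without iron-loaded mouse 2 (9.24%) and to 7 without control mouse 1 (8.23%). They rose to 19 without iron-loaded mouse 1, in a fit that called 20.8% of all genes. The 3 calls in 3’-LEXO fell to 0 without control mouse 3, where 1.46% of all genes were called. They fell to 1 without control mouse 1 (2.4%) or iron-loaded mouse 3 (2.53%).

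**Figure D4:**
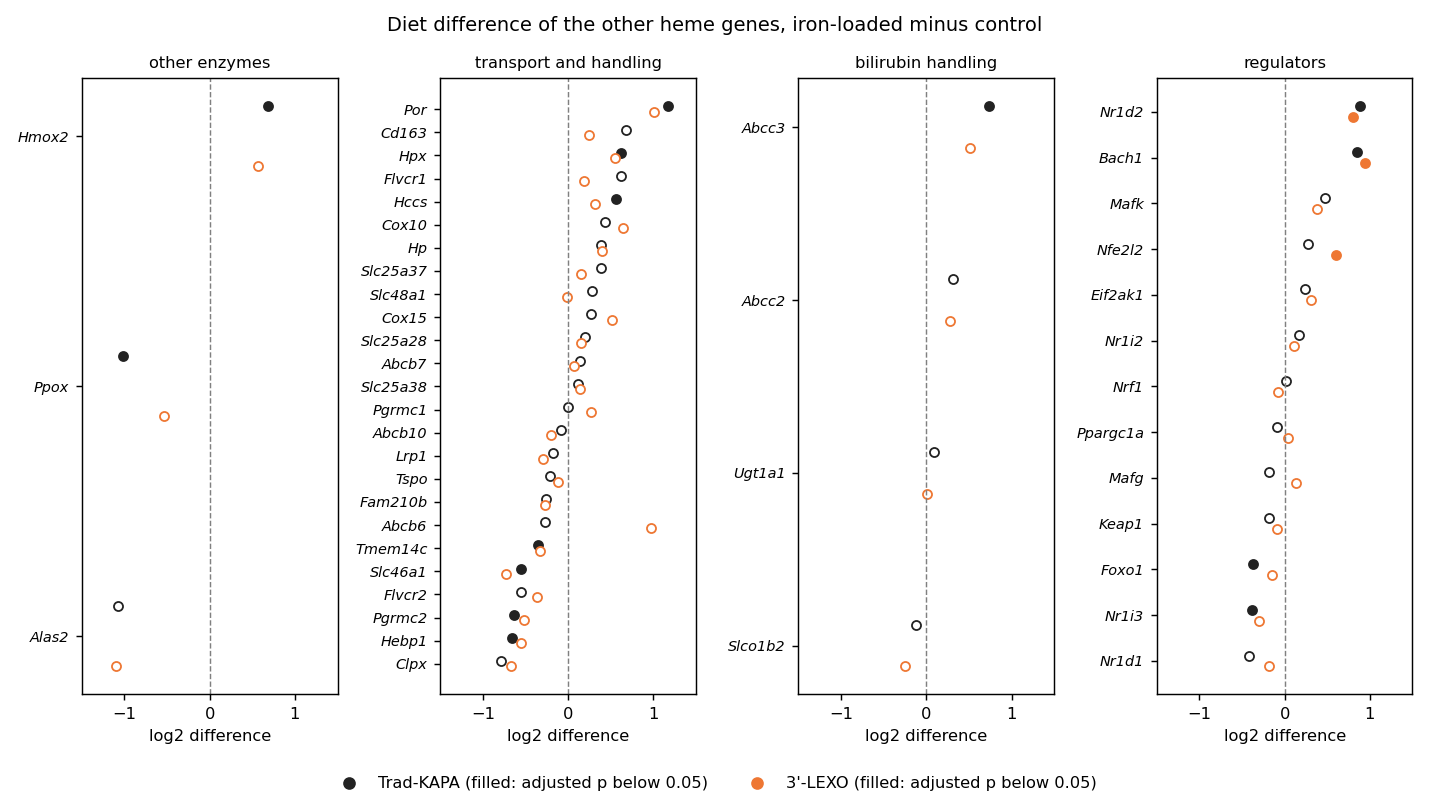
Log2 difference between diets (iron-loaded minus control) of the 45 other heme genes in 4 groups, in both kits. Filled points have an adjusted p below 0.05, which 14 genes reached with Trad-KAPA and 3 with 3’-LEXO.

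The genes whose pattern was most like that of Alas1 and Hmox1 were found by the root mean square difference of log2(CPM + 1), each library taken relative to the control mean of its kit, over 12 libraries and 9311 genes. Among the 3 nearest to Alas1 were the clock gene Per2 at 0.21 and Nampt, which encodes an enzyme of NAD synthesis, at 0.27. A gene near Alas1 or Hmox1 by this measure must share its diet difference, so the differences given here follow from the choice. Per2 rose by 1.78 on the log2 scale with Trad-KAPA and 1.64 with 3’-LEXO. Nearest to Hmox1 were the collagen gene Col13a1 at 0.25, Cdip1 at 0.27 and Clec7a, a receptor of myeloid cells, at 0.30. These rose by 1.21, 1.10 and 1.29 with Trad-KAPA, and their differences with 3’-LEXO were 0.87, 0.81 and 0.84.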

How the data were processed

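Liver RNA of 6 mice was sequenced in 12 libraries, grouped by diet and kit as per the labels. The authors mapped reads with STAR 2.5.3a to GRCm38 and deposited raw counts of reads mapped uniquely to exons. The counting program, strand setting and annotation release are not given in the sources used here. Symbols, positions and exon lengths came from GENCODE M21, which held 26940 of 27022 identifiers.

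Diet was tested within each kit on the deposited counts with edgeR 4.0.16 (quasi-likelihood F test, TMM, filterByExpr, Benjamini-Hochberg adjustment over all genes at 0.05), its interaction with kit over 12 libraries, and kit with the mouse as a term. The steps were checked on simulated counts. These were drawn without an effect of the mouse, so the check does not cover deviations that libraries of a mouse share. Libraries of the same mouse deviated together (r from 0.461 to 0.795 over 9311 genes), so that replicate numbers pair the kits. DESeq2 1.42.0, its size factors, other filters, 10000000 drawn counts per library, a replicate block and leaving out each mouse were alternatives.

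All 9 genes were named, 3 other enzymes, and up to 4 called genes of each other list by the size of the Trad-KAPA difference. The genes and lists were chosen with earlier results of these data known, and a few items are not reported here. Motifs were matched on both strands of RefSeq promoter windows.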

Additional observations from a re-analysis of the deposited data

How the results depend on the processing

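With 3 mice per diet, the calls of moderate size depended on single mice. Leaving out each mouse in turn gave 3 to 5 calls among the 9 genes with Trad-KAPA and 1 to 2 with 3’-LEXO. Among the 45 other heme genes it gave 3 to 19 and 0 to 4. For the 9 genes it gave 0 calls for the interaction and 9 between kits. The same fits called 6.27% to 20.8% of all genes with Trad-KAPA and 1.46% to 6.37% with 3’-LEXO. They called 0.0% for the interaction and 80.0% to 81.0% between kits. In 3’-LEXO, 3 of the 9 genes were called without a filter on low counts and 2 at 10 M counts, where the main count was 1. For the other heme genes it called 8 with DESeq2 and 10 without the filter, where the main count was 3. Over all genes, 3’-LEXO gave 811 calls (6.10%), 1313 with DESeq2 (9.43%) and 2040 without the filter (8.68%). It gave 719 at 10 M counts (5.61%) and 436 with the replicate number as a block (3.28%). That block changed no call among the members, and its numbers do not pair the diets (r between -0.010 and 0.066 in Trad-KAPA, and between -0.174 and 0.106 for 3’-LEXO). Signs turned only for differences near 0. Over the fits without 1 mouse, Fech in Trad-KAPA ranged from -0.11 to 0.0090, and in 3’-LEXO Urod from -0.14 to 0.029 and Blvra from -0.12 to 0.037. The cause was not tested. The 36 to 107 counts of Uros limit its precision in 3’-LEXO.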

Other observations

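Abcb6, which encodes a porphyrin transporter, was singled out after its values were seen, for its low counts in 3’-LEXO. It had 55 to 89 counts per Trad-KAPA library and 2 to 16 per 3’-LEXO library of the same RNA. Its diet difference was -0.27 ± 0.20 on the log2 scale (SE, n = 3 per diet) with Trad-KAPA and 0.98 ± 0.52 with 3’-LEXO. The difference between these was 1.25 ± 0.50, at an unadjusted p of 0.0262 but an adjusted p of 0.999975 in edgeR (interaction of diet and kit).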
